A study of Labroides dimidiatus with 23 samples.

Results

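Forebrain chromatin of adult cleaner wrasse (Labroides dimidiatus) was compared between fish that had been familiarised with a client and control fish for which both clients were new. The comparison used 22 of the 23 libraries in the series: every library marked Fam or Con in its title, except familiar 30 replicate 2, whose list held only 7077 peaks. This gave 11 familiar libraries (5 labelled 30 and 6 labelled 120) and 11 control libraries (5 labelled 30 and 6 labelled 120). All fish had been given a social preference test. The unit of the numbers 30 and 120 is not stated, so they are called labels here. Acetylation of histone H3 at lysine 27 (H3K27ac) was mapped by CUT&RUN, in which a nuclease tethered to an antibody releases the marked fragments for sequencing. Treatment and label were balanced, so a single familiarity effect could be estimated over both labels, with the label as a second factor.

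H3K27ac is placed by the acetyltransferases CBP and p300 and is found on the nucleosomes of active promoters and enhancers, where it is removed by histone deacetylases. Long acetylated stretches are often found around genes that are strongly transcribed in a tissue, whereas short ones are often single enhancers. In the brain the mark changes with neuronal activity in mice, and histone acetylation is needed for the formation of long-term memory in rodents. The cleaner wrasse removes parasites from other reef fish, which are called its clients. The peak lists name no genes, and no annotation was used here, so results are given by region and the forebrain label could not be checked against marker genes.

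A set of 3 libraries from both treatments, control 30 replicate 3, familiar 30 replicate 4 and familiar 120 replicate 3, had 2064 extra regions, each found in 2 or 3 of them and in no more than 1 of the other 19. By the Jaccard index, the length a pair of lists share divided by their joint length, control 30 replicate 3 had a median of 0.542 and familiar 120 replicate 3 of 0.424 against those 19, which had a median of 0.648 among themselves. Familiar 30 replicate 4, with 0.634, was close to the 19 on this index. Over all other kept libraries, familiar 120 replicate 4 also had a low median index, 0.603. Limma region counts, peaks, covered length, regions present, the share of chromosome 6 and the Jaccard comparison are given with and without the 3 libraries that share extra regions. Other results use all 22 libraries unless stated.

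At the level of single regions, 0 passed the test between familiar and control fish. Wherever 3 or more of the 22 libraries had a peak, the covered bases formed 52979 regions with a median length of 1282 bp and a total of 133.6 Mb. The percent of a region covered by a library's peaks (its cover) served as its value. Among 52924 tested regions, limma with label as a second factor called 0 regions at an adjusted p under 0.05, which is 0% of those tested. The lowest limma adjusted p was 0.9998. Without the 3 libraries that share extra regions, limma again called 0 of 51890 tested regions, with a lowest limma adjusted p of 0.372. At an unadjusted p under 0.05, 871 of them were higher and 1139 lower, together 3.87%. With all 22 libraries, an unadjusted p under 0.05 was found for 1868 regions, or 3.53% of those tested, against the 5% that evenly spread p-values would give. Of these, 495 regions (0.935% of those tested) had higher cover in familiar fish and 1373 (2.59%) had lower cover. The p-values were not evenly spread: 4859 lay from 0.5 to 0.55, where an even spread gives 2646. The 5% is thus only a rough mark. An exact test of presence, in which a region counts as present at a cover of at least 50%, called 0 regions (0%), with 362 (0.684%) having an unadjusted p under 0.05. With 11 libraries against 11, the smallest possible p of the presence test was 8.59e-06. A call would have needed at least 10 regions at that p, or more regions at a larger p. In fact 0 regions reached it, and the lowest unadjusted p of this exact test was 0.00108.

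The excess of lower over higher regions changed in size between fits, and it was reversed in some. At an unadjusted p under 0.05, 942 regions were higher and 669 lower within label 30 alone (3.09% of 52208 tested). Within title numbers 17 to 29 the split was 2008 against 1067 (6.43% of 47843 tested). With covered length as a covariate, 936 regions were higher and 1131 lower at an unadjusted p under 0.05 (3.91% of 52924 tested). The median difference of -1.84 percentage points over all regions became -0.29. Covered length is made of the same peaks as cover, so this covariate removes much of a shared shift by construction. It cannot show what the excess came from. Leaving out familiar 120 replicate 3, the library with the shortest covered length, gave 1020 higher regions against 1095 lower ones and a median difference of -0.20 points. Array weights, by which limma gives noisier libraries less weight, gave 939 higher regions against 1365 lower ones (4.35% of 52924 tested). The excess was larger with limma's trend and robust options for the variance, at 355 higher against 1400 lower (3.32% of those tested). It was also larger with ranges of the title numbers as a block, at 469 against 1775 (4.24%). The lists hold no read counts, so library depth is unknown, and its part in the split of higher and lower regions was not tested.

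**Figure D1:**
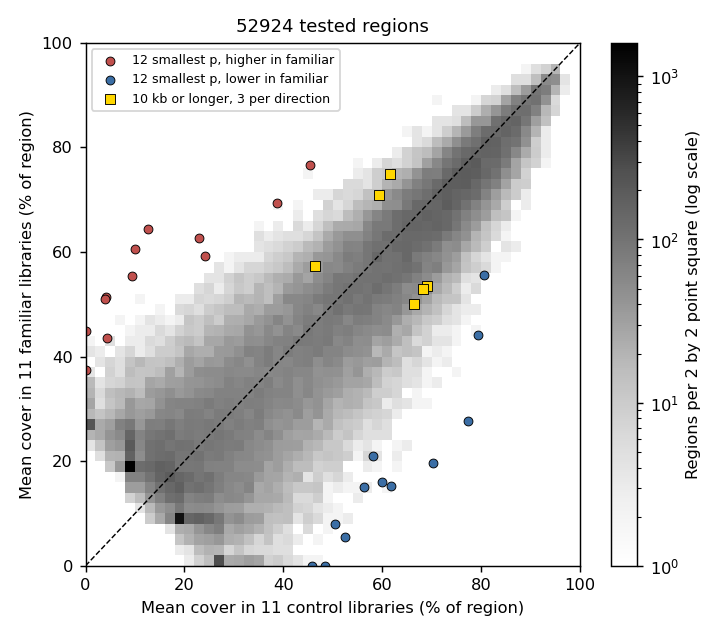
Mean cover of the 52924 tested regions in the 11 control libraries (x axis, percent of the region) and in the 11 familiar libraries (y axis, percent of the region); grey squares give the number of regions, on a log scale, and the dashed line marks equal cover. Coloured points are the 12 regions with the smallest p in each direction and yellow squares the 3 regions of 10 kb or longer with the smallest p in each direction; none of them had a limma adjusted p under 0.05.

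Most regions had nearly the same presence in both treatments. The number of libraries in which a region was present differed by at most 1 between treatments in 33829 regions (63.9%), and was equal in 13862 (26.2%). A total of 4817 regions were present in all 22 libraries. Presence in all 11 libraries of a treatment was found for 5473 regions in familiar fish and for 8652 in control fish. Such counts are limited by the libraries with the fewest regions present. Familiar 120 replicates 3 and 4 had 15727 and 17976 regions present, while the lowest control library had 23103. Of the regions present in all 11 control libraries, 181 were absent from 4 or more familiar libraries. In the opposite direction, 22 regions present in all 11 familiar libraries were absent from 4 or more control libraries. Regions at the extreme were few: 7 were present in no familiar library and in at least 7 control libraries, and 2 in no control library and in at least 7 familiar libraries. In 0 of 52979 regions did the cover of every familiar library lie above that of every control library, and 0 regions had the reverse order (0% each). These counts describe the lists and were not tested.

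The width of the interval of the difference depended on the length of the region. Among 2109 tested regions of 10 kb or longer, the whole 95% interval of the limma fit lay inside ±20 percentage points in 78.3% and inside ±30 points in 98.5%. Their largest differences were -16.3 and 14.8 points. Regions of 3 to 10 kb had intervals inside ±30 points in 82.4% of 8574, and those of 1 to 3 kb in 47.4% of 21581. Among 20660 regions under 1 kb, this share was 11.8%, and the interval lay inside ±50 points in 86.5%. The median standard error of the difference was 6.24 points for the longest class and 14.1 points for the shortest. The limits were thus narrower for broad acetylated domains than for compact regions. Limma drew the variance of every region toward a value common to all lengths. This widens intervals where libraries vary least and narrows them where they vary most. A difference in signal height within a region covered in both treatments would not be seen in these values.

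**Figure D2:**
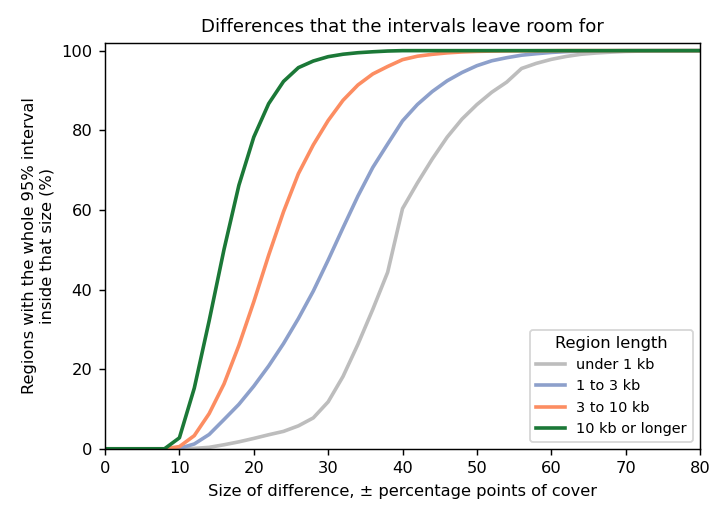
Percent of tested regions (y axis) whose whole 95% interval of the familiar minus control difference lies within plus or minus the size on the x axis (percentage points of cover), for 4 classes of region length. The curve for regions of 10 kb or longer reaches 78.3% at 20 points, where that for regions under 1 kb stands at 2.60%.

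The regions nearest to a difference were compact to mid-sized, from 356 to 3873 bp long. They are described as the 12 regions with the smallest p in each direction. All 24 had a limma adjusted p of 0.9998, so none is called different, and their values were selected to be extreme. Coordinates follow the peak files, and their genome build was not stated in the labels.

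Cover was lower in familiar fish with the smallest p of all at a 2065 bp region on chromosome 16 from 6276944 to 6279008. Its cover ranged from 0% to 47.3% with a median of 14.5% in 11 familiar libraries, and from 16.4% to 84.2% with a median of 56.5% in 11 control libraries. It was present in 0 of 11 familiar and in 8 of 11 control libraries, although peaks touched it in 7 familiar libraries, so the groups overlapped in cover. The difference was -41.3 ± 8.20 points (SE; limma unadjusted p = 4.35e-05). It was -33.5 points within label 30 and -47.7 points within label 120.

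Chromosome 3 from 34158117 to 34158924 showed the second smallest p, with a difference of -50.6 ± 10.9 points (SE). Its median cover was 0% in familiar libraries and 71.04% in control libraries, but 1 familiar library reached 96.5% and the lowest control library had 29.3%. Peaks there were weak: the strongest peak of each library at this region had a median -log10 q of 1.41, given by the authors' peak caller.

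Control libraries were uniform at a pair of regions where familiar libraries were lower or more spread. On chromosome 6 from 14296681 to 14298095, all 11 control libraries had the region present, with cover from 63.2% to 92.4%. The 11 familiar libraries ranged from 0% to 82.3% with a median of 41.9%, and 4 had it present. The difference of -35.1 ± 7.71 points (SE) was -9.90 points when only peaks at a -log10 q of 5 or higher, called stringent peaks here, were counted. On chromosome 5 from 23601943 to 23605595, a 3653 bp region, cover was 69.7% to 100% in control and 37.4% to 70.4% in familiar libraries. The ranges of the groups overlapped there only between 69.7% and 70.4%. The difference of -25.0 ± 5.64 points (SE) had the opposite sign, 4.23 points, with stringent peaks.

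At 3 further regions a treatment had hardly any peak. No familiar library had a peak on chromosome 19 from 7644742 to 7645200, where 7 of 11 control libraries had one and the control median was 68.0%. The same held on chromosome 3 from 31072026 to 31072576, with peaks in 7 of 11 control libraries, a control median of 62.3% and a highest value of 100%. On chromosome 9 from 6356461 to 6357606, peaks were found in 1 familiar and in 10 control libraries, with 5.47% ± 18.2 (SD, n = 11) against 52.5% ± 33.7 (n = 11). Control libraries without any peak were found at each of these regions, so the groups overlapped at 0%. Peaks in 3 libraries of any treatment were enough to form a region. The regions on chromosomes 19 and 3 were thus formed by control libraries alone, and their 0% in familiar libraries is no separate support. That on chromosome 9, with a peak in 1 familiar library, could not have formed without control libraries. Its low familiar cover is no separate support either. The 5 other regions with lower cover in familiar fish lay on chromosomes 2, 5, 6, 14 and 16, with differences from -49.7 to -37.2 points. That on chromosome 6, with peaks in 2 familiar libraries, likewise could not have formed without control libraries.

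In the opposite direction, the smallest p belonged to a 2636 bp region on chromosome 7 from 8690268 to 8692903. Its cover ranged from 0% to 96.4% with a median of 57.1% in familiar libraries, and from 0% to 39.6% with a median of 0% in control libraries. It was present in 6 of 11 familiar and 0 of 11 control libraries. The difference of 46.1 ± 10.9 points (SE; limma unadjusted p = 0.000306) was 43.98 points within label 30 and 47.9 within label 120.

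Peaks were found in familiar libraries alone at a pair of the 12 regions. On chromosome 5 from 21304503 to 21305665, 8 of 11 familiar libraries and 0 of 11 control libraries had a peak, with a familiar median of 29.9% and a highest value of 100%. Its difference was 13.7 points within label 30 and 57.2 within label 120 (limma unadjusted p of the interaction 0.0126, adjusted p = 0.9999), and 13.6 points over both labels with stringent peaks. On chromosome 3 from 27868654 to 27869009, 6 familiar libraries and 0 control libraries had a peak. Cover there was 44.9% ± 44.4 (SD, n = 11) in familiar libraries, of which 5 were at 0%, as all controls were. Familiar libraries were thus split at both regions. Both were formed by familiar libraries alone, since peaks in 3 libraries were enough, so the 0% in control libraries is no separate support.

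A 712 bp region on chromosome 4 from 16492687 to 16493398 differed mainly within label 30. Its familiar median was 79.6% and its control median 0%, with a highest control value of 57.3%. Within label 30 the difference was 79.3 points and within label 120 it was 26.7 points (limma unadjusted p of the interaction 0.0323, adjusted p = 0.9999). The largest difference in favour of familiar fish was 51.9 ± 13.4 points (SE) on chromosome 14 from 7510597 to 7511134. That region was present in 8 of 11 familiar and 2 of 11 control libraries, and its cover ran from 0% to 99.3% and from 0% to 77.1%. At both regions only 2 control libraries had a peak. Neither could have formed without familiar libraries, so their low control cover is no separate support.

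The only region of the 12 that was present in all 11 familiar libraries lay on chromosome 11 from 30420674 to 30422096, with familiar cover from 50.8% to 91.1%. Control libraries there ranged from 0% to 73.4%, and 5 of 11 had it present, so the ranges overlapped widely. On chromosome 22 from 20575617 to 20579489, peaks touched the region in all 22 libraries, with 76.6% ± 20.8 (SD, n = 11) in familiar and 45.4% ± 19.03 (n = 11) in control libraries. The remaining 5 regions with higher cover lay on chromosomes 6, 14, 16 and 17. Their differences were 35.2 to 47.3 points. On chromosomes 6 and 16, and on chromosome 17 from 29435702 to 29436251, only 1 control library had a peak. Those regions could not have formed without familiar libraries, so their low control cover is no separate support. On chromosome 14 from 561499 to 562770 the difference of 39.8 points became 2.64 points with stringent peaks.

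**Figure D3:**
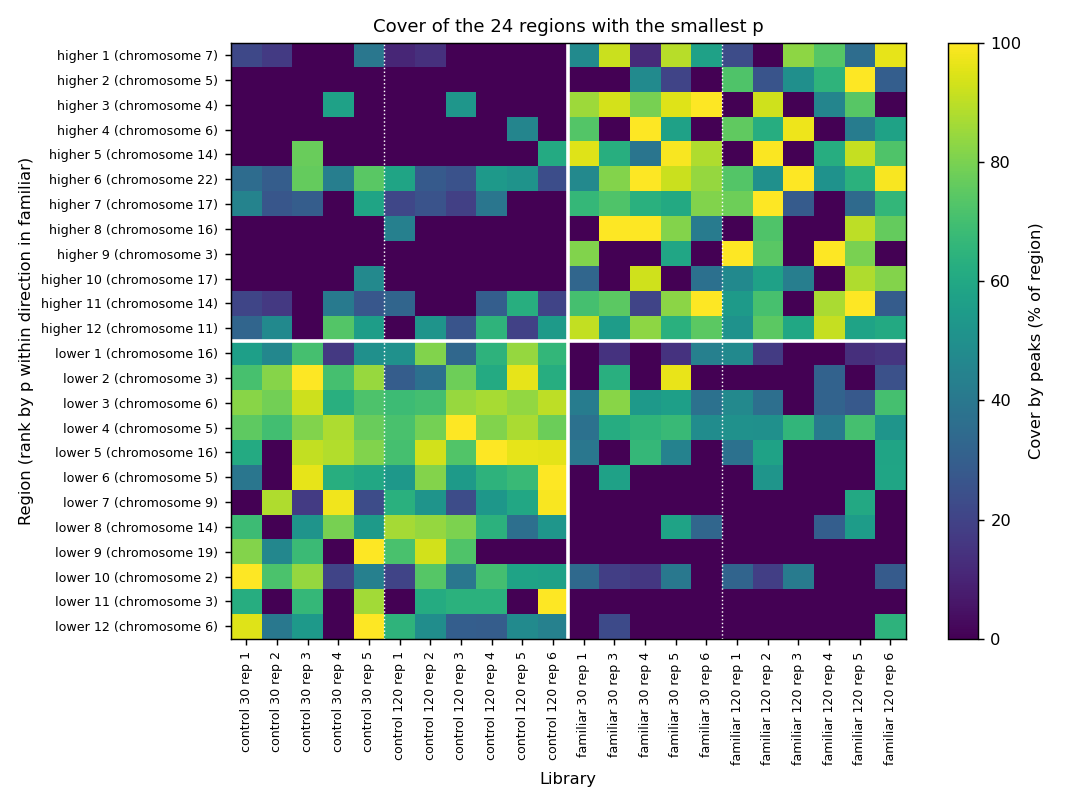
Cover by peaks (colour, percent of the region) in each of the 22 libraries (columns, control left and familiar right of the white line, dotted lines between labels 30 and 120) for the 12 regions with the smallest p in each direction (rows, numbered by p, with their chromosome). Within every row at least 1 library has a value inside the range of the other treatment. In some rows, values of 0% and 100% are found within the same group.

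These 24 regions are described by length, position and peak strength, with no test. Their median length was 941.5 bp in the 12 higher and 977 bp in the 12 lower regions, against 1281 bp over all tested regions, and 6 of the 12 in each direction were under 1 kb. The median gap to the nearest region present in all 22 libraries was 57.7 kb and 47.3 kb, against 41.0 kb over all tested regions. They lay on 10 and 8 different chromosomes. The strongest peak of a library at these regions stood at a median percentile of 26.2 and 26.8 of that library's list by -log10 q, as deposited by the authors. Over 40879 tested regions of the same range of lengths this percentile was 33.97. All 24 differed in the same direction within both labels, while 45.6% of all tested regions did so. A small p over both labels nearly requires this, so it is no separate support.

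Broad domains of 10 kb or longer had 0 calls among 2109 tested, as had every other length class. An unadjusted p under 0.05 was found for 2 of them (0.0948%) and 4.81% of regions under 1 kb, against 3.53% of all tested regions. All were below the 5% that evenly spread p-values would give, which is only a rough mark here. The common variance value of the fit can also bear on these shares and on the lengths of the regions with the smallest p. Its part was not tested. The difference between classes was not tested. The domain with the smallest p and higher cover in familiar fish was 16900 bp long, on chromosome 5 from 15201263 to 15218162. It was present in all 22 libraries, with 70.9% ± 10.1 (SD, n = 11) in familiar and 59.3% ± 7.27 (n = 11) in control libraries. Its difference was 11.6 ± 5.23 points (SE), and 5.74 points with all 23 libraries. The lower domain with the smallest p was 15692 bp long, on chromosome 6 from 7822178 to 7837869, and had 53.5% ± 14.1 in familiar and 69.1% ± 14.8 in control libraries. In both domains the ranges of the groups overlapped, and the limma adjusted p was 0.9998. The other 4 named domains lay on chromosomes 1, 9, 13 and 20 with differences of 10.9, -16.3, -15.3 and 13.4 points. The differences on chromosomes 1 and 20 were 6.10 and 7.26 points with all 23 libraries. With regions made only of bases that 11 or more libraries covered, they were 3.52 and 3.11 points, and that on chromosome 13 was -9.26.

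Whole lists were compared next, to see whether familiar fish had more or longer acetylated stretches in total. The 11 familiar lists held 34713 to 46912 peaks outside the mitochondrial genome with a median of 45858, and the 11 control lists 42227 to 48263 with a median of 46360. The familiar range thus enclosed most of the control range, with a pair of familiar libraries below all controls. The means were 43923 ± 3735 (SD, n = 11) and 45231 ± 2258 (n = 11), a difference of -1308 peaks. Its 95% interval by exact permutation within labels ran from -4126 to 1388 (two-sided exact permutation p = 0.361). Without familiar 120 replicate 3 the difference was -378 peaks.

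Covered length was 86.6 ± 9.62 Mb (SD, n = 11) in familiar and 88.6 ± 4.30 Mb (n = 11) in control libraries. The difference of -1.96 Mb had a 95% interval from -8.52 to 4.48 Mb (two-sided exact permutation p = 0.535), and was -0.14 Mb without familiar 120 replicate 3 and -0.41 Mb without familiar 120 replicate 4. These libraries, with 67.3 and 69.9 Mb, lay below all controls, of which the lowest had 78.7 Mb. They were not left out together. The median covered length was higher in familiar libraries, at 90.4 Mb against 89.6 Mb. The median peak width was 1049 ± 37.0 bp and 1052 ± 32.2 bp, with an interval of the difference from -32.3 to 26.8 bp (exact permutation p = 0.856). Peaks of 10 kb or longer numbered 1054 ± 188 and 1062 ± 143 per library, with an interval from -153 to 136 (exact permutation p = 0.903). A familiar library had 26376 ± 5043 regions present and a control library 27754 ± 2312, a difference of -1377 with an interval from -4917 to 2050 (exact permutation p = 0.427). It was -335 without familiar 120 replicate 3 and -570 without familiar 120 replicate 4. The median number of regions present was higher in familiar libraries, 28527 against 27555. Without the 3 libraries that share extra regions, the differences were -468 peaks, -0.883 Mb and -780 regions present. Over the 5 measures the lowest adjusted p, with all 22 libraries, was 0.892.

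**Figure D4:**
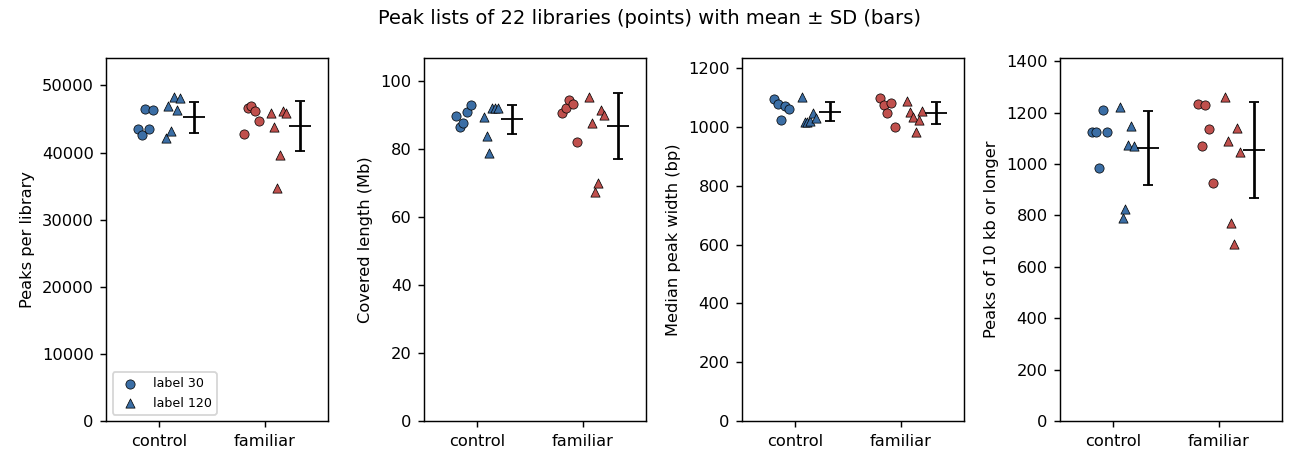
Number of peaks, covered length (Mb), median peak width (bp) and number of peaks of 10 kb or longer in 11 control and 11 familiar libraries, all axes starting at 0; circles are label 30, triangles label 120, and bars give the mean ± SD of each treatment. The treatments overlap in all 4 panels, and the lowest covered lengths of 67.3 and 69.9 Mb belong to familiar libraries labelled 120.

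Long and short regions both had slightly lower mean cover in familiar libraries, but the medians were not lower in every class. Mean cover of regions of 10 kb or longer was 76.96% ± 7.84 (SD, n = 11) in familiar and 78.3% ± 3.73 (n = 11) in control libraries, and the interval of the difference ran from -6.73 to 3.79 points. For regions under 1 kb the values were 27.4% ± 6.14 and 28.98% ± 4.33, with an interval from -6.36 to 3.22 points. The differences of the classes from 1 to 3 kb and from 3 to 10 kb were -2.31 and -1.68 points. In these classes the familiar median was higher, 53.5% against 52.0% and 67.2% against 66.9%. In the shortest and longest classes it was lower. Familiar 120 replicates 3 and 4 lay below all control libraries in all 4 classes. None of the 4 classes differed beyond the spread between libraries (lowest exact permutation p adjusted over the 4 classes, 0.657). All 4 differences were positive within label 30, from 0.53 to 1.52 points, and negative within label 120, from -5.38 to -3.27 points. That change between labels was not beyond the spread either (exact permutation p from 0.205 to 0.3898). The permutation exchanged treatments within each label, so it assumes no treatment difference at either label, and not merely equal differences.

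Shares of the covered length were compared for each of the 24 chromosomes, and chromosome 6 had the smallest p. Chromosome 6 held 3.85% to 4.23% of the covered length in familiar libraries with a median of 4.17%, and 4.15% to 4.35% in control libraries with a median of 4.19%. Of 11 familiar libraries 5 lay below the lowest control library, and 4 control libraries lay above the highest familiar library. The difference was -0.126 percentage points with a 95% interval from -0.208 to -0.0467 (two-sided exact permutation p = 0.00260). Adjusted over the 24 chromosomes it was 0.0625, which misses the threshold of 0.05. The chromosome was singled out after these values were seen.

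The lower share of chromosome 6 was measured within both labels, at 4.17% ± 0.0661 (SD, n = 5) against 4.27% ± 0.0858 (n = 5) for label 30 and 4.06% ± 0.127 (n = 6) against 4.21% ± 0.0715 (n = 6) for label 120. The numbers in the library titles fell into 3 ranges, and the difference was -0.305 points within 17 to 29, -0.120 within 43 to 59 and -0.0619 within 69 to 80, with two-sided exact permutation p of 0.333, 0.05 and 0.667. The value for 17 to 29 rests on a pair of libraries per treatment at label 120, for which 0.333 is the smallest p possible. It leaves out familiar 30 replicate 1, with a share of 4.21%, since that range held no control library at label 30. The lower share was spread along the chromosome: in windows of 1 Mb, 31 of 35 had a smaller share in familiar fish. No other chromosome was divided into windows. Of 2294 tested regions on chromosome 6, 122 (5.32%) had an unadjusted limma p under 0.05. The share was 3.53% over all tested regions, and evenly spread p-values would give 5%, only a rough mark here. Of the 122, 96 were lower in familiar fish, and the median difference over the 2294 was -3.27 points, against -1.84 over all tested regions. The windows and regions hold the same peaks as the share of the chromosome, so they are no separate support. The difference in share became -0.0694 points with stringent peaks (exact permutation p adjusted over 24 chromosomes, 0.954). It was -0.0871 with all 23 libraries (adjusted exact permutation p = 0.837) and -0.128 without the 3 libraries that share extra regions (adjusted exact permutation p = 0.232). Leaving out control 30 replicate 1 or 5 or familiar 120 replicate 5 or 6 brought the adjusted p to 0.0241, 0.0423, 0.0332 and 0.0324. With any other kept library left out, the adjusted exact permutation p was from 0.0569 to 0.1505. The next smallest p belonged to chromosome 13, with 4.49% ± 0.0360 (SD, n = 11) in familiar and 4.46% ± 0.0446 (n = 11) in control libraries (exact permutation p = 0.0894, adjusted p = 0.834).

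**Figure D5:**
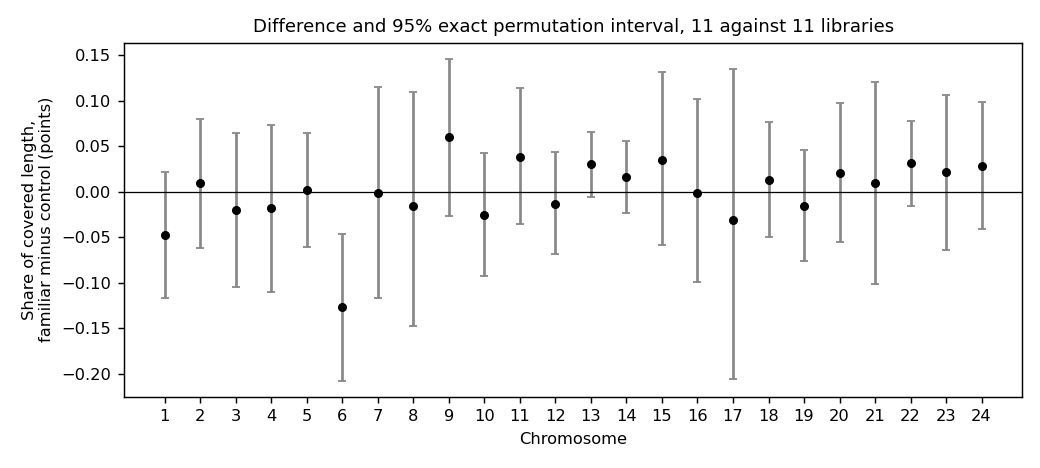
Difference between familiar and control libraries (y axis, percentage points) in the share of the covered length that lies on each of the 24 chromosomes (x axis), 11 against 11 libraries; points are differences and bars 95% intervals by exact permutation within labels. The interval of chromosome 6, from -0.208 to -0.0467, does not include 0; those of the other 23 do.

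Libraries of the same treatment did not pass a test for being more alike than libraries of different treatments. The Jaccard index averaged 0.6125 over 50 pairs of the same treatment and label and 0.616 over 61 pairs of the same label but different treatment. The difference was -0.00342 (one-sided exact permutation p = 0.888), and -0.000763 without the 3 libraries that share extra regions (p = 0.570, exact permutation).

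Whether one common effect hid opposite effects at the labels was tested as an interaction. Limma called 0 regions (0%) and gave 2194 at an unadjusted p under 0.05 (4.15%), with a lowest limma adjusted p of 0.9999. Of the 2194, 490 had a higher familiar minus control difference within label 120 than within label 30, and 1704 a lower one. The median change over regions was -5.19 points. Without the 3 libraries that share extra regions, limma called 0 of 51890 regions, with a lowest limma adjusted p of 0.266. It then gave 978 higher and 1525 lower at that unadjusted level (4.82%), with a median change of -1.48 points. The median difference over regions was 0.44 points within label 30 and -4.13 points within label 120. The familiar minus control difference in the number of peaks changed by -4154 from label 30 to label 120 (958 within label 30 and -3196 within label 120). This change was not beyond the spread between libraries (two-sided exact permutation p = 0.0978). That permutation assumes no treatment difference at either label, and not merely equal differences.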

How the data were processed

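CUT&RUN for H3K27ac was done on cleaner wrasse forebrain, per the labels' protocols. Tools listed in the submitters' processing notes are MACS2, Bowtie2, Trimmomatic 0.39, Picard, SAMtools and FastQC. For the genome build and peak-calling settings, no source used here gives a value. The authors deposited a peak list per library, with a score (10 times -log10 q without decimals in nearly all rows), a fold ratio of signal over background, and -log10 p and -log10 q values. No deposited -log10 q was below 1. Fold and score were not used, and q was used to rank peaks or to set a stricter limit inside 1 list. Depth is unknown.

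Groups were read from titles. Whether libraries come from separate fish is not stated, so p-values reflect spread among these libraries, part of which may be technical. Libraries under 0.5 times the median of 45859 peaks were left out, and so was the mitochondrial genome. Regions are runs of bases with peaks in 3 or more kept libraries, merged across gaps no longer than 200 bp and kept from 200 bp in length. Percent cover was fitted with limma 3.58.1 in R 4.3.3 (treatment and label, Benjamini-Hochberg adjustment) on the regions with a mean cover of 5 to 95%, which left out 55. Cover is bounded and often 0 or 100, which limma does not model, so presence was also tested exactly. Single values were compared by exact permutation of treatment within labels (232848 arrangements), and intervals are the shifts that test does not reject. The regions named were, per direction, the 12 of smallest p and the 3 among those of 10 kb or longer. The fits were tested on simulated data. Alternatives were all 23 libraries, stringent peaks (-log10 q of 5 or higher), covered length as a covariate, ranges of the number in the library titles, regions from 11 libraries, no cover filter, other weights or scales, and leaving out each library. Leaving out the 3 libraries that share extra regions was chosen after seeing the data. The members, tests and rules were chosen with earlier results of these data known. Python 3.11.15, numpy 2.4.6, scipy 1.17.1, pandas 2.3.3 and matplotlib 3.10.9 were used.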

Additional observations from a re-analysis of the deposited data

Results flagged for a closer look

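Within the 4 groups, 44 sets of values were checked for a library far from the rest of its group, and 4 were marked, where chance marks about 1 in 20. Control 30 replicate 3 had a mean cover of 71.5% over regions of 10 kb or longer, while the next library of its group had 79.4%. Its median Jaccard index with the other kept libraries was 0.550, below the next value of 0.637. Familiar 120 replicate 3 stood at 0.427 on that index, and the next library of its group at 0.603. Control 120 replicate 2 had 4.35% of its covered length on chromosome 6, above the next value of 4.22% in its group. Without that library the difference in the share of chromosome 6 was -0.111 points (exact permutation p adjusted over 24 chromosomes, 0.1505).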

How the results depend on the processing

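The count of 0 regions in the familiarity comparison held in 40 of 40 alternatives, with a lowest limma adjusted p of 0.0559, within label 30 alone. The interaction count was 0 to 1 when a library was left out, with 1 without familiar 30 replicate 1 or 6, and the number of chromosomes called was likewise 0 to 1. Without the label term, region calls stayed at 0. With all 23 libraries, 270 regions were higher and 2117 lower at an unadjusted p under 0.05 (4.51% of 52977 tested). The split was 201 against 1108 with regions from 11 libraries (3.49% of 37481 tested). It was 942 against 669 within label 30 (3.09% of 52208 tested). Within title numbers 17 to 29 it was 2008 against 1067 (6.43% of 47843 tested). For the 30 named regions, the alternatives counted leave out single labels or title ranges alone, the fit without the label term, and other scales. Of 895 values of these regions under the alternatives counted, 894 kept their direction and 0 were called. The exception was the region on chromosome 5 from 23601943, at 4.23 points with stringent peaks. Only 8 named regions had a value at that setting and 17 with regions from 11 libraries. On chromosome 14 from 11918476 the latter gave -66.4 points. The named regions were picked for a small p in these same libraries, and most alternatives reuse nearly all of them. A kept direction is therefore no separate support.

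Within title numbers 17 to 29 (a pair of libraries per treatment at label 120 for single values) differences turned to 244.5 peaks, 4.74 Mb, 10.25 bp of median width, 171 broad peaks, 1823.5 regions present, and 2.49, 2.82, 3.39 and 3.66 points of cover from the shortest to the longest class. The median over regions was 1.99 points there and 0.58 within label 30 alone. Median width differed by 23.8 bp with stringent peaks, and by -7.93 to 4.03 bp when a library was left out. Broad peaks then differed by -34.9 to 24.9, cover of regions of 3 to 10 kb by -2.58 to 0.27 points, and that of longer ones by -2.20 to 0.64. The Jaccard difference ranged from -0.00939 to 0.00336, and was 0.0254 within title numbers 43 to 59. The single values within 17 to 29 could not pass, since 0.333 is the smallest exact permutation p possible there. The medians over regions had no test. None of the other differences passed its test, and no direction is called for any of them. The cause of these changes was not tested.

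Unknown depth, bounded cover values and the unstated build limit what the lists can show.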
